A study of Mus musculus with 8 samples.

Results

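Control mouse atria were described by the level of every transcript in 4 bulk RNA libraries, to show which genes and which isoforms dominated the atrial transcriptome after birth. A gene was taken in when its mean over the 4 control libraries reached 1 CPM, where CPM is the count divided by the summed count of the library and multiplied by 1000000. This rule kept 14338 of the 54532 genes in the table, from 4 of the 8 libraries of the study. The study set atria that lost CHD4, a chromatin remodelling ATPase, against control atria, and only the control side is described here. The control mice carried Chd4flox/flox alleles, as did all mice of the study, and received the vector AAV9:Nppa-EGFP on postnatal day 2. This vector makes green fluorescent protein under control of the Nppa promoter, which is active in atrial myocytes, so the control tissue carried an injected virus and floxed but uncut alleles. Right and left atria were dissected, frozen and labelled as mixed cell types, and polyadenylated RNA was selected by oligo-dT. The sources used here do not give the age at collection, the sex or how many mice a library pools. The labels do not say that the libraries came from separate animals, so the spread given below is that between these libraries and may be partly technical.

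The atrium is a thin-walled muscle that fills the ventricle and also works as an endocrine organ. Its myocytes store atrial natriuretic peptide, the product of Nppa, in granules and build their sarcomeres with several isoforms that ventricular myocytes largely lack, such as the light chains Myl4 and Myl7. In the mouse, the alpha myosin heavy chain Myh6 replaces the slower beta chain Myh7 in the ventricle around birth, while the atrium uses Myh6 throughout. The tissue also holds fibroblasts, endothelial and endocardial cells, mesothelium, macrophages, nerve and blood, and in bulk RNA fewer cells of a type and less RNA per cell cannot be told apart.

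The 4 libraries were of nearly equal depth, with 39804625, 40244389, 40588007 and 40458219 counts in controls 1 to 4, so that 1 CPM stood for about 40 counts. Between 14266 and 14358 genes reached 1 CPM in a single library, and 13628 did so in all 4. The other 710 of the 14338 genes dipped below 1 CPM in at least 1 library. Counts of each pair of libraries differed by 15.2 to 30.3 times the sampling variance of counts (chi-square per degree of freedom over genes), so no pair was a repeat of 1 library. The labels give the libraries names with 1 of 2 prefixes, shared by controls 1 and 2 and by controls 3 and 4.

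A small number of genes held most of the counts. The 10 highest genes took 17.3% ± 0.269 of all counts (SD, n = 4 libraries), the 100 highest took 32.8% ± 0.428 and the 1000 highest took 59.0% ± 0.445. On the mean over libraries, 31 genes held 25% of the counts, 542 held 50%, 2507 held 75% and 5552 held 90%. The 40194 genes below 1 CPM together held 0.255%, and 23778 of these had no count in any control library. Of the 10 highest genes of each library, 8 were common to all 4 libraries, as were 28 of the 30 highest and 91 of the 100 highest, so the top of the order hardly moved between libraries.

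**Figure D1:**
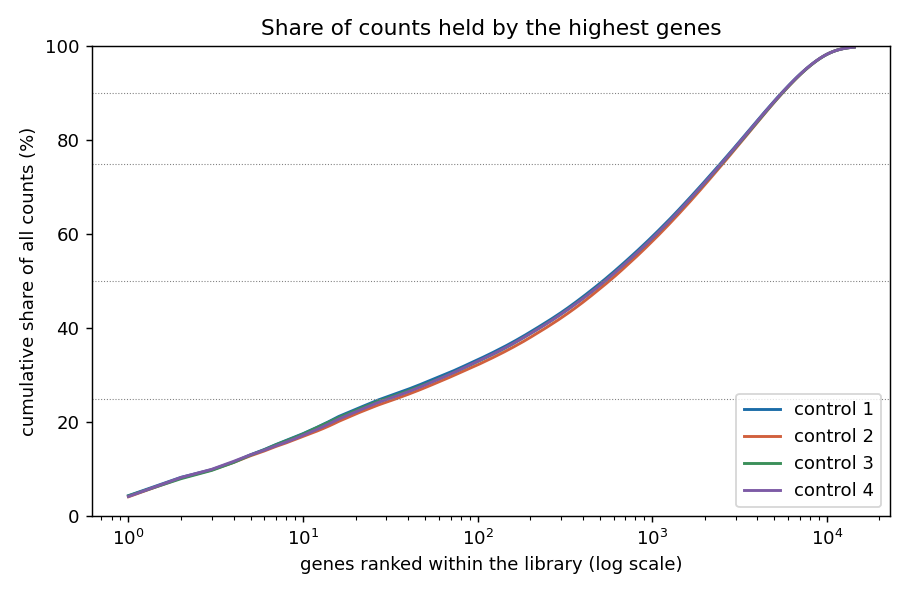
Cumulative share of all counts (vertical axis, %) against the rank of a gene within its library (horizontal axis, log scale), 1 line for each of the 4 control libraries; dotted lines mark 25, 50, 75 and 90%. The lines nearly coincide, and between 521 and 566 genes were needed to reach 50%.

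By level, 68 genes stood at 1000 CPM or more and held 29.97% of the counts, 1715 stood between 100 and 1000 CPM (38.8%), 7777 between 10 and 100 CPM (29.04%) and 4778 between 1 and 10 CPM (1.95%). Protein-coding genes made up 97.1%, 99.3% and 98.0% of the 3 upper groups and 76.7% of the lowest, where long noncoding RNAs and pseudogenes gathered. The median coefficient of variation between libraries was 6.69%, 5.57%, 7.03% and 16.2% in these 4 groups, against 0.392%, 1.22%, 2.84% and 8.60% that counting error alone gives at the median level of each group. At the lower edge the order was set by few counts. Pask at 1.004 CPM, Cxcl5 at 1.001 and 9630013K17Rik at 1.000 were the last genes taken in, and Gm42742 at 0.9998, Gm42743 at 0.9997 and AC154232.2 at 0.9996 CPM were the next ones left out, all with a mean near 40 counts a library.

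Muscle contraction, the mitochondrial respiratory chain and the atrial hormone supplied the highest genes. The mitochondrially encoded mt-Co1, a subunit of cytochrome c oxidase, ranked at the top by count, with 43859, 41499, 43361 and 40306 CPM in controls 1 to 4. Myh6, the motor of the atrial thick filament, followed with 38922, 39873, 36538 and 42084 CPM. These 2 genes traded places between libraries: mt-Co1 was higher in controls 1, 2 and 3 and Myh6 in control 4. Atp2a2, the calcium pump of the sarcoplasmic reticulum, stood at 16354, 17129.9, 16842 and 17426 CPM. Nppa stood at 16076, 15998, 17674 and 16925 CPM, above Atp2a2 in control 3 only, so the order of this pair by count lay within the spread of the libraries. Further down came Tnnt2 (cardiac troponin T), Actc1 (cardiac actin), Pam (the enzyme that amidates peptides and a main membrane protein of atrial granules), Myl4, Tpm1 (tropomyosin) and Ttn (titin), at mean levels of 7402 to 5389 CPM. Bmp10, a secreted growth factor made by atrial and trabecular myocytes, ranked 22 with 3261, 2918, 2733 and 3210 CPM.

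**Figure D2:**
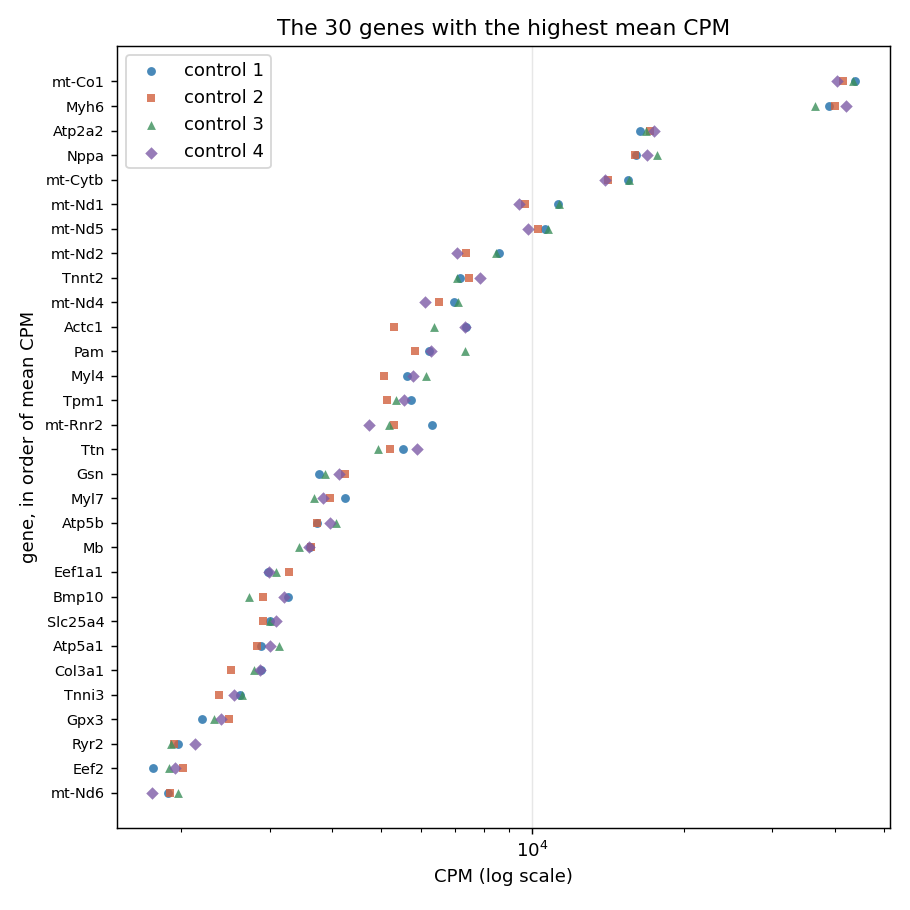
CPM (horizontal axis, log scale) of the 30 genes with the highest mean CPM, with 1 marker for each of the 4 control libraries and genes in order of their mean. Markers of a gene lie close together compared with the distance from the top gene (42256 CPM) to the lowest shown (mt-Nd6, 1877 CPM).

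Long transcripts give more counts per molecule, so genes were compared with each other per kb of merged exon. On this scale mt-Co1 stayed at the top with 27350 ± 1068 CPM per kb (SD, n = 4), and Nppa moved to rank 2 with 18585, 18495, 20433 and 19566 CPM per kb. Among nuclear genes Nppa was thus 3.30 ± 0.307 times as high per kb as Myh6, and at least 3.12 times in each library. Next among nuclear protein-coding genes came Myl7, the atrial regulatory light chain, with 6660 ± 402 CPM per kb, Myh6 with 5851 ± 342, Actc1 with 4077 ± 601 and Atp2a2 with 2785 ± 75.1. Mb (myoglobin, the oxygen store of red muscle) followed with 2390.2 ± 63.2 CPM per kb. The values of Myl7 and Myh6 did not overlap between libraries except that Myh6 in control 4 (6257) passed Myl7 in control 3 (6244). Of the 30 highest genes by count, 23 were also among the 30 highest per kb. Of these 30, the genes that moved down most were the longest: Ttn, with 116825 bp of exon, moved from rank 16 to rank 798 (46.1 ± 3.55 CPM per kb) and the calcium release channel Ryr2 from rank 28 to rank 546 (69.1 ± 3.40).

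The promoters of 4 atrial and sarcomere genes are shown because each carries a searched motif close to its start, and they were chosen after the motifs were seen; the same window of Ttn, Actn2 and Tnnc1 held none. The sequences are the 100 bases before the RefSeq start on GRCm38.p6, 5′ to 3′ on the strand of the gene, and capitals mark the motifs found in them. The windows are chr4:148000622-148000721 on the plus strand for Nppa, chr11:5898783-5898882 on the minus strand for Myl7, chr6:87428894-87428993 on the plus strand for Bmp10 and chr2:91118044-91118143 on the plus strand for Mybpc3.
Nppa: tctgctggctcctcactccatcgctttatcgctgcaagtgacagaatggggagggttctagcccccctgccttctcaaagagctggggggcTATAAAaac
Myl7: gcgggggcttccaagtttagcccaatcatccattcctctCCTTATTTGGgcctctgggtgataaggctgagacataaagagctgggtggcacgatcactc
Bmp10: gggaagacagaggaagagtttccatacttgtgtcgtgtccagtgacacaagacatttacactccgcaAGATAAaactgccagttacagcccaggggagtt
Mybpc3: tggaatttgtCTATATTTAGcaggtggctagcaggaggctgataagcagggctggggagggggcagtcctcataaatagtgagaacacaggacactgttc

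The capitals are a TATA box in Nppa, 9 bases before the start, a CArG box (the letters bound by serum response factor) in Myl7, 61 bases before it, a GATA motif in Bmp10, 33 bases before it, and a MEF2 motif in Mybpc3, 90 bases before it. In all, 8 such letter patterns were searched on both strands of the 300-base RefSeq promoters (250 bases before to 50 after the start): TATAAA for the TATA box, AGATAA for GATA factors, AGGTGT for T-box factors, AAGGTCA for estrogen-related receptors, CCGGAAG for ETS factors, and the NRF1, MEF2 and CArG patterns. A MEF2 match can contain the letters of the TATA box. Of the 68 genes at 1000 CPM or more, 36 had a RefSeq promoter within 1000 bases of their annotated start. A MEF2 motif was present in 2 of these (5.56%; Ttn and Mybpc3) against 0.572% of all 17311 promoters, and a CArG box in 2 (5.56%; Actc1 and Myl7) against 1.42%. The TATA box was present in 5 of 36 (13.9%; Myh6, Nppa, Actc1, Col3a1 and Eef2) against 11.7%, the GATA motif in 3 (8.33%) against 9.12%, the T-box letters in 2 (5.56%) against 13.1%, the estrogen-related receptor motif in 1 (2.78%) against 4.14%, the ETS motif in 2 (5.56%) against 12.1%, and the NRF1 motif in 0 against 1.37%. The 17311 promoters include many outside the genes at 1 CPM or more. In the groups of 100 to 1000, 10 to 100 and 1 to 10 CPM, the GATA motif was present in 5.61%, 5.59% and 7.30%, below the 8.33% above. The TATA box was present in 8.04%, 6.19% and 7.94% of these groups. The T-box letters were present in 9.50%, 9.56% and 11.7%, and the ETS motif in 14.1%, 21.2% and 13.7%. The MEF2 motif was present in 1.14%, 0.393% and 0.569%, and the CArG box in 1.79%, 1.21% and 0.890%. These are counts of letters in few promoters, with no test.

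Each sarcomere family was led by 1 cardiac or atrial isoform, per kb of exon and in all 4 libraries. Among myosin heavy chains Myh6 took 97.4% ± 0.166 of the family's summed level per kb. The next member was not Myh7 but Myh4, a fast skeletal muscle chain, with 48.3, 61.9, 56.3 and 52.7 CPM per kb against 36.4, 34.6, 21.7 and 29.9 for Myh7. Myh4 was higher than Myh7 in each of the 4 libraries (ratio 1.33 to 2.60), and Myh6 was 198 ± 41.4 times as high as Myh7. Since these chains share stretches of sequence (9.68% of 75-base words of Myh4, and 13.6% of those of Myh7, occur in another gene), their low values are uncertain.

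Myl7 was 10.9 ± 1.46 times as high per kb as the next regulatory light chain, Myl9, which smooth muscle and other cells use. Myl2, the ventricular regulatory chain, stood at 133, 22.7, 9.65 and 18.8 CPM per kb. Control 1 was far above the other libraries for Myl2, and the ratio of Myl7 to Myl2 therefore ran from 54.2 to 647. Among essential light chains, Myl4 with 1219.7 ± 97.9 CPM per kb was 6.70 ± 0.856 times as high as Myl1 and 9.93 ± 3.76 times as high as the ventricular Myl3, which was also highest in control 1 (236, 105, 92.7 and 127 CPM per kb). Actc1 took 88.5% ± 1.15 of the actins. The skeletal Acta1 (93.6 ± 6.99 CPM per kb) and the smooth muscle Acta2 (149, 68.0, 48.7 and 92.8) could not be ordered: their ratio crossed 1, from 0.617 to 1.80.

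Cardiac troponins stood far above their skeletal relatives. Tnni3 reached 1236 ± 56.7 CPM per kb, 26.3 ± 2.31 times the fast skeletal Tnni2, and Tnnt2 reached 955 ± 44.8, 12.5 ± 1.26 times Tnnt3. Tnni1, the slow skeletal troponin I that the fetal heart uses, stood at 1.81 ± 0.127 CPM per kb. Troponin C was almost wholly Tnnc1 (1179.9 ± 97.5 CPM per kb). Its fast relative Tnnc2 had 2 or 3 counts in each library, and 74.0% of its exon bases lie in exons of another gene on the opposite strand.

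The thick filament binding proteins were led by Mybphl, a myosin-binding protein H-like gene of the atrium, with 424, 508, 548 and 541 CPM per kb. Mybpc3, cardiac myosin-binding protein C, stood at 298, 247, 307 and 369 CPM per kb. Mybphl was higher in each library (1.42 to 2.05 times), whereas by count, without correction for length, Mybpc3 was higher. All 40 listed genes of the sarcomere scaffold and its giant proteins were present at 1 CPM or more, 33 of them at 100 CPM or more, with a median of 397 CPM against 20.8 CPM over all 14338 genes. Ttn, Actn2 (the Z-disc actinin), Myom1 and Myom2 (M-band myomesins) had the highest counts of this list, and Myom3 the lowest at 1.85 CPM.

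Genes of calcium handling stood at widely different levels, from Atp2a2 down to Fkbp1b, a binding protein of the release channel, at 2.26 CPM. All 33 listed genes reached 1 CPM and 23 reached 100 CPM, with a median of 204 CPM against 20.8 CPM over all 14338 genes, and the list took 2.86% ± 0.0488 of all counts. Atp2a2 was 47.6 ± 4.62 times as high per kb as the fast skeletal pump Atp2a1. Of the pump's small membrane inhibitors, Sln (sarcolipin) stood at 1118, 1149, 1104 and 1114 CPM per kb and Pln (phospholamban) at 143, 126, 116 and 112. Sln was thus 7.81 to 9.95 times as high as Pln, and the ratio of Atp2a2 to Sln was 2.48 ± 0.0718. Of the exon bases of Pln, 64.7% lie opposite the antisense gene Gm47644, listed at 8.20 CPM. Casq2, the calcium buffer of the store, took 95.9% ± 0.437 of the calsequestrins, and Ryr2 95.5% ± 0.729 of the ryanodine receptors.

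Genes of the secretory granule made up 2.71% ± 0.142 of all counts, and 2 of the 27 carried most of it: Nppa and Pam, at 6216, 5830.2, 7331 and 6297 CPM. Both were highest in control 3. Pam was 0.0280 ± 0.00162 times as high per kb of merged exon as Nppa. This ratio depends on the length used: Pam has 11892 bp of merged exon but a longest transcript of 4102 bp, against 865 bp by both for Nppa. Nppb, the second cardiac natriuretic peptide, varied more, with 210.3, 105, 75.7 and 211 CPM per kb. Nppa exceeded it by 88.4 to 270 times. Corin, the protease that cuts the hormone precursor, stood at 454 ± 42.2 CPM and Cpe, a carboxypeptidase of granules, at 708 ± 50.2 CPM. Over all 14338 genes the median was 20.8 CPM and 12.4% reached 100 CPM. Of the 27 granule genes 23 reached 1 CPM and 11 reached 100 CPM, with a median of 78.7 CPM. At the low end, Chga (chromogranin A) stood at 0.298 CPM, Pcsk1 (a prohormone convertase) at 0.205, Scg5 at 0.702 and Chgb at 2.17 CPM. Of the exon bases of Nppa, 61.5% lie opposite the antisense gene Gm13054, at 17.3 ± 3.31 CPM; the sources used here do not give the strand setting of the count.

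Among the receptors of the heart's nerves and hormones, Chrm2, the muscarinic receptor of the vagus, took 97.8% ± 0.151 of its family with 65.1, 67.6, 70.6 and 68.7 CPM per kb. It was 11.5 ± 2.45 times as high per kb as Adrb1, the main beta-adrenergic receptor (4.90, 4.86, 7.44 and 7.40). Npr3, the clearance receptor for natriuretic peptides, stood 3.22 ± 0.282 times as high per kb as Npr2, with 56.5 ± 5.26 CPM per kb, and Npr1, the receptor of the Nppa product, at 12.2 ± 1.12. Npr3 is also the leading gene of the endocardial marker list used below.

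The channel that Chrm2 opens through G proteins is built of Kcnj3 and Kcnj5, and these led the inward rectifiers. Kcnj3 stood at 96.6, 113, 124 and 102 CPM per kb and Kcnj5 at 87.7, 80.5, 89.7 and 98.0. The lead of Kcnj3 was small (1.04 to 1.40 times), with overlapping values. Of the exon bases of Kcnj3, 31.1% lie opposite exons of another gene, against 0% for Kcnj5. The strand setting of the count is not given, so the order of this pair is uncertain. Kcnj3 was 10.4 ± 0.978 times as high per kb as Kcnj2, which carries the classical inward rectifier current of the ventricle.

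Among calcium channel subunits the T-type Cacna1h (16.2, 18.6, 18.5 and 23.8 CPM per kb) exceeded the L-type Cacna1c (8.45, 8.79, 6.95 and 7.95) in every library. The connexins Gja1 and Gja5 were close together, at 36.7 ± 2.67 and 27.3 ± 7.2 CPM per kb, and their ratio of 1.09 to 1.81 left their order small against the spread of Gja5. Of the pacemaker channels, Hcn4 (3.25 ± 0.826 CPM per kb) and Hcn2 (2.19 ± 0.524) were low and overlapped. Of the 20 listed pacemaker and conduction genes 19 reached 1 CPM and 2 reached 100 CPM. The list had a median of 22.2 CPM, against 20.8 CPM over all 14338 genes, of which 12.4% reached 100 CPM. Isl1, a sinus node regulator, stayed at 0.0930 CPM and Shox2 at 5.58 ± 1.23 CPM.

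Transcription factors stood below the contractile genes but above the median gene. Of 39 listed cardiac factors, 36 reached 1 CPM, 11 reached 100 CPM and none reached 1000 CPM. The whole list took 0.302% ± 0.00608 of the counts, with a median of 41.2 CPM against 20.8 CPM over all 14338 genes, of which 12.4% reached 100 CPM. Tbx5, which sets the atrial gene programme, stood at 301, 306, 286 and 292 CPM and Nkx2-5 at 87.9, 72.9, 103 and 112 CPM. Per kb these 2 genes were at 63.3 ± 1.93 and 54.7 ± 10.1, which overlapped. Gata4 was 1.48 ± 0.168 times as high per kb as Gata6, and Mef2d 1.34 ± 0.0950 times as high as Mef2a, but by count each of these orders was the reverse. Chd4, the gene that the study deletes in its other group, had 269, 293, 274 and 299 CPM here and was 2.15 to 3.71 times as high per kb as the next CHD remodeller, Chd6.

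The mitochondrial genome supplied 10.8%, 9.89%, 10.6% and 9.53% of the counts in controls 1 to 4, of which its 13 protein genes made up 9.46% of all counts. Its genes encode core subunits of the respiratory chain and ATP synthase and are transcribed as long shared precursors. Their levels were uneven. On the mean over libraries, 7 of the protein genes stood between 3617 (mt-Nd6) and 27350 (mt-Co1) CPM per kb. Another 5, mt-Co2, mt-Co3, mt-Atp6, mt-Nd3 and mt-Nd4l, stood between 93.3 and 154 CPM per kb, and mt-Atp8 at 186 ± 13.6.

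Those 5 low genes are the ones with near-complete annotated copies in the nuclear genome. Of their 75-base words, 97.8% to 99.9% also occurred in an annotated gene of chromosome 1, against 0% to 61.5% for the 7 high genes. The 7 chromosome 1 copies lie in chr1:24611535-24616197 on GRCm38. The coding letters of mt-Co2 and its copy Gm28661 were identical over all 681 aligned bases, and those of mt-Co3 and Gm28437 over all 783. The pair with the fewest aligned differences above none was mt-Nd3 (chrM:9459-9806) and Gm28438 (chr1:24612775-24613119, minus strand), alike at 344 of 345 aligned bases. Their first 75 transcript bases are shown to let the closeness of gene and copy be seen; the capital marks the base that differs.
mt-Nd3: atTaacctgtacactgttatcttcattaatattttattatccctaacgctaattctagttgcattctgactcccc
Gm28438: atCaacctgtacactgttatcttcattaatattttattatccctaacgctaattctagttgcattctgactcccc

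The copies themselves were counted at 5.22 to 103 CPM. Gm28661 stood at 79.3, 111, 77.3 and 84.1 CPM, next to 86.3, 71.8, 73.9 and 81.6 CPM for mt-Co2, so the copy was the higher of the pair in controls 2, 3 and 4. Other pairs differed more: Gm10925 stood at 207, 56.9, 70.8 and 78.8 CPM against 63.6, 68.2, 57.1 and 65.2 for mt-Atp6, and Gm28438 at 5.22 against 53.6 for mt-Nd3. The 5 genes together reached 354 CPM. The sources used here do not say how reads with several matches were counted, and its part in these values was not tested. The gene mt-Atp8 was low without any shared words, but words were searched in annotated transcripts only. It starts after the end of mt-Co2 and overlaps the start of mt-Atp6, and both of these have copies in the chromosome 1 stretch. Whether that stretch also holds a copy of mt-Atp8 was not tested. The values of mt-Co2, mt-Co3, mt-Atp6, mt-Nd3, mt-Nd4l, their copies and mt-Atp8 are therefore uncertain.

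**Figure D3:**
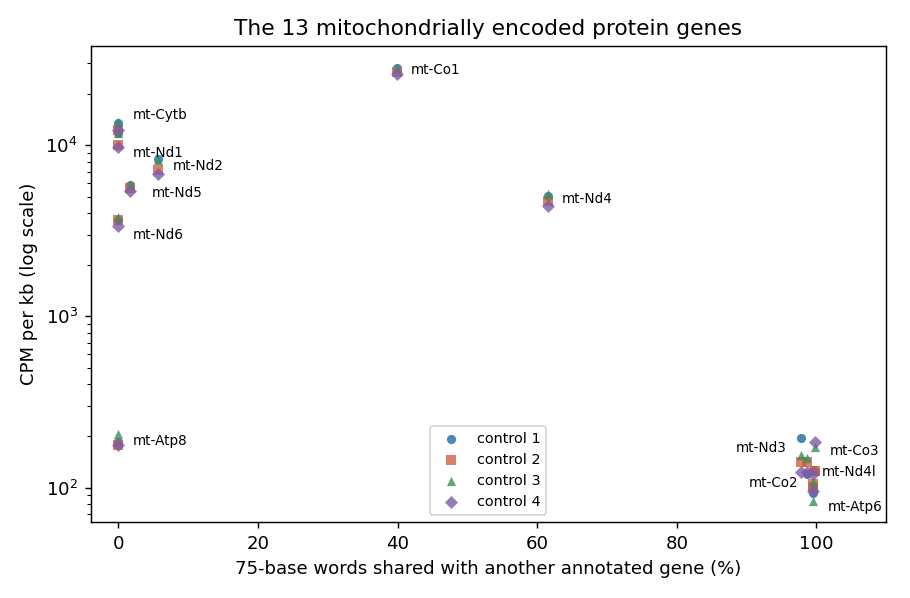
Level of the 13 mitochondrially encoded protein genes in CPM per kb (vertical axis, log scale) against the share of their 75-base words found in another annotated gene (horizontal axis, %), with 1 marker for each of the 4 control libraries. The 5 genes with 97.8% or more shared words have means of 93.3 to 154 CPM per kb, mt-Atp8 lies low with none, and the other 7 have means of 3617 CPM per kb or more.

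Nuclear genes of energy metabolism were present almost completely. All 38 listed complex I subunits, 13 of complexes II and III, 14 of complex IV and 17 of ATP synthase reached 1 CPM. Their medians were 144, 316, 260 and 334 CPM, in this order, against 20.8 CPM over all 14338 genes. The muscle forms led the paired subunits of cytochrome c oxidase per kb: Cox6a2 was 6.10 ± 0.651 times as high as Cox6a1, Cox7a1 3.05 ± 0.00870 times as high as Cox7a2, and Cox8b 1.70 ± 0.114 times as high as Cox8a. By count Cox8b and Cox8a were level (111 ± 3.71 and 112 ± 4.62 CPM), so the lead of Cox8b rests on the correction for length. The Cox7a ratio had the smallest relative spread of the family ratios computed here, at 3.04 to 3.05 in the 4 libraries. Slc25a4, the muscle adenine nucleotide carrier, was 8.25 ± 0.326 times as high per kb as Slc25a5.

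Genes that burn fatty acids and glucose were also expressed nearly in full. The median was 154 CPM for fatty acid oxidation and 378 CPM for glycolysis, against 20.8 CPM over all 14338 genes. All 28 listed genes of fatty acid oxidation and all 20 of glycolysis reached 1 CPM. The former took 0.775% ± 0.0644 of the counts, led by Lpl (lipoprotein lipase), Fabp3 (the heart fatty acid-binding protein) and Hadha. The latter took 0.931% ± 0.0358, led by Gapdh, Aldoa and Pkm. Ldhb, the lactate dehydrogenase chain of the heart, exceeded Ldha 1.88 ± 0.0728 times per kb, though by count Ldha was higher (554 against 493 CPM), and the muscle enolase Eno3 exceeded Eno1 10.96 ± 0.861 times. Cpt1b, the muscle form of the enzyme that lets long-chain fatty acids into mitochondria, was low, with 6.53, 8.05, 5.77 and 6.43 CPM, against 62.9, 112, 80.2 and 71.8 CPM for the liver form Cpt1a. Of the exon bases of Cpt1b, 81.4% also belong to the read-through gene Gm44502 on the same strand, which had 0 counts in all 4 libraries, so the value of Cpt1b is uncertain. In all, 201 of 14333 annotated genes had 50% or more of their exon bases inside exons of another gene, 74 of them on the same strand, and 396 shared 50% or more of their 75-base words.

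Across 39 gene families with 2 or more members at 1 CPM, the highest member per kb was the same in all 4 libraries in all 39. Its lead was 10 times or more in 17 families and under 2 times in 10, among them Kcnj3 over Kcnj5, Mef2d over Mef2a, Gja1 over Gja5 and Gata4 over Gata6. With 4 libraries an exact two-sided sign-flip permutation test cannot go below p = 0.125, so the range of each ratio stands in for a test. Without length correction the leader changed in 6 families, to Mybpc3, Ckm, Ldha, Cox8a, Mef2a and Gata6. With the longest transcript as length it changed in 2, to Mef2a and Gata6. Each leader was the highest member in every library, so any subset of libraries must give the same 39 leaders. Their return in controls 1 and 2 alone and in controls 3 and 4 alone therefore adds nothing.

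**Figure D4:**
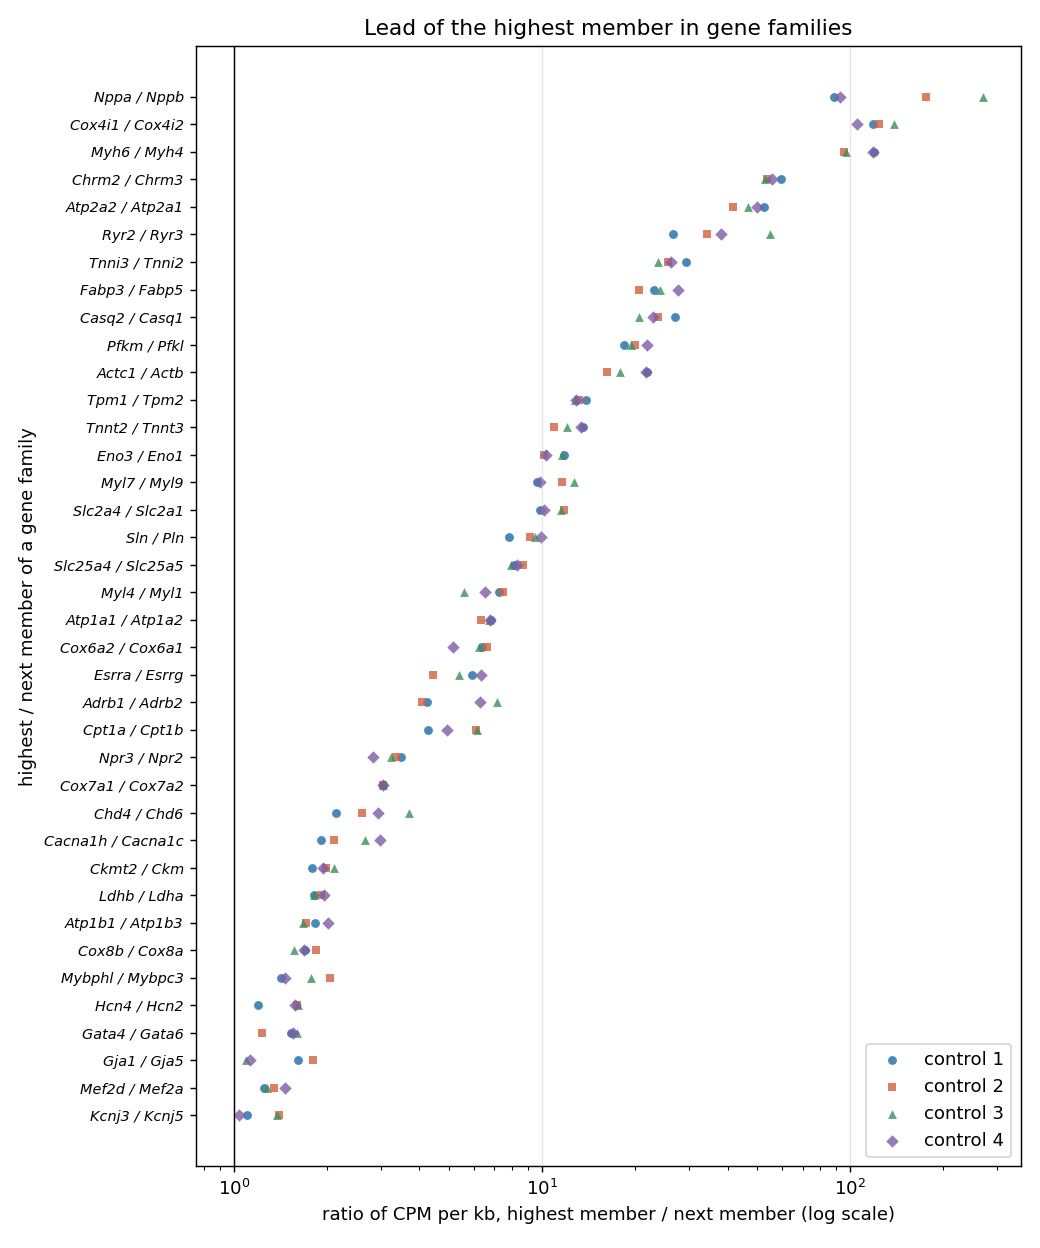
Ratio of CPM per kb of the highest member to the next member (horizontal axis, log scale) in 38 of the 39 gene families, with 1 marker for each of the 4 control libraries; the black line marks equal levels. No marker falls below 1, and the ratios run from 1.04 (Kcnj3 over Kcnj5, control 4) to 270 (Nppa over Nppb, control 3).

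The atrial label was checked against markers. Of 30 listed atrial genes 29 reached 1 CPM and 22 reached 100 CPM, with a median of 335 CPM and 4.59% ± 0.152 of all counts. Of 18 listed ventricular genes 16 reached 1 CPM and 5 reached 100 CPM, with a median of 27.9 CPM and 0.222% ± 0.0414 of the counts. Over all 14338 genes the median was 20.8 CPM and 12.4% reached 100 CPM, so the ventricular list was not below the typical gene. Hand1 had no count in any library, and Irx4, a ventricular regulator, stood at 3.09, 0.398, 0 and 0.222 CPM. The ventricular list summed to 2818, 2162, 1878 and 2031 CPM, highest in control 1. Myl2, Myl3 and Irx4 were also highest in control 1. Ventricular genes such as these make up the list, so its sum is not a separate observation. The part of ventricular tissue in these values was not tested.

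Transcripts of fast skeletal muscle were also present. Of 14 listed genes 11 reached 1 CPM, with a median of 61.1 CPM over the list against 20.8 CPM over all 14338 genes. The list summed to 1758, 1732, 1954 and 1781 CPM. Ckm and Myl1, which the heart also expresses, headed the list. Myh4 and Myh1, fast myosin chains, stood at 329.7 ± 34.5 and 98.7 ± 4.98 CPM, Tnnt3 at 122 ± 13.2, Actn3 at 51.3 ± 5.23 and the calcium buffer Pvalb at 46.3 ± 6.48. These levels were even across libraries, with Pvalb between 38.0 and 53.7 CPM. The fast troponin C gene Tnnc2, also listed, stood far lower, at 0.0698 CPM per kb. Most of its exon bases lie opposite another gene, as given above. The regulators of skeletal myoblasts were near 0: Myod1 at 0.0621 CPM and Pax7 at 0.0186. The source of these transcripts was not tested.

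Other cell types of the atrium were represented by most of their markers. All 12 fibroblast markers were present and summed to 11418, 11294, 11292 and 11732 CPM, headed by Gsn, Col3a1 and Dcn; the actin-severing Gsn alone, which myocytes also make, gave 4000 CPM. All 12 endothelial markers summed to 2483 ± 105 CPM (Eng, Vwf and Pecam1 highest), and all 6 endocardial markers to 924 ± 66.1. The 10 mesothelial markers summed to 699.8 ± 78.0 CPM, headed by Upk3b and Msln, and the 12 macrophage markers to 475 ± 44.8, headed by Lyz2. Erythroid genes, chiefly the globins Hbb-bs and Hba-a1, summed to 1920, 1038, 1850 and 1770 CPM, lowest in control 2.

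Smooth muscle and pericyte markers summed to 1593 ± 175 CPM, with 10 of 11 at 1 CPM or more, headed by Des, which myocytes also make, Rgs5 and Acta2. The lowest of them, Tagln, stood at 0.652 CPM, and 67.9% of its exon bases lie opposite another gene. Markers of nerve, fat and lung stood low. Schwann cell and neuronal markers summed to 105 ± 12.5 CPM, of which Mbp gave 58.7, and adipocyte markers to 12.6 ± 0.243. Of 10 lung epithelium markers, Hopx, which the heart also expresses, was the only one above 1 CPM, with the surfactant gene Sftpc at 0.0187.

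Genes of cell division stood low. Of 22 cell cycle genes 21 reached 1 CPM but none reached 100 CPM, and the list summed to 162, 159, 239 and 191 CPM. Its median was 4.92 CPM, against 20.8 CPM over all 14338 genes, of which 12.4% reached 100 CPM. Mki67, a mark of cycling cells, stood at 12.7, 9.91, 27.6 and 20.8 CPM and Top2a at 7.46, 7.33, 18.7 and 14.1, both higher in controls 3 and 4. The median was 31.2 CPM over the 17 fetal and neonatal markers, against 20.8 CPM over all 14338 genes. Of the 17 markers, 14 reached 1 CPM and 4 reached 100 CPM. The imprinted noncoding RNA H19, the highest of them, stood at 551, 729, 739 and 572 CPM, and per kb it was 34.6 ± 1.71 times as high as its neighbour Igf2, a fetal growth factor. Of the exon bases of Igf2, 64.5% overlap another gene.

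The libraries of this single group were not alike in every gene. The biological coefficient of variation (BCV), edgeR's estimate of the spread between libraries beyond counting error, was 13.4% in common over genes. Of 9560 genes with a mean of 10 CPM or more, 29 had a BCV of 50% or more, and 22 of these had a curated symbol. Without control 3 the number was 19. The library farthest from the median of the 4 libraries, on a log scale, was control 1 for 13 of the 29 genes, control 2 for 9, control 3 for 5 and control 4 for 2. In the 10 genes described below that set controls 1 and 2 apart from controls 3 and 4, this does not mean that a single library stood apart.

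**Figure D5:**
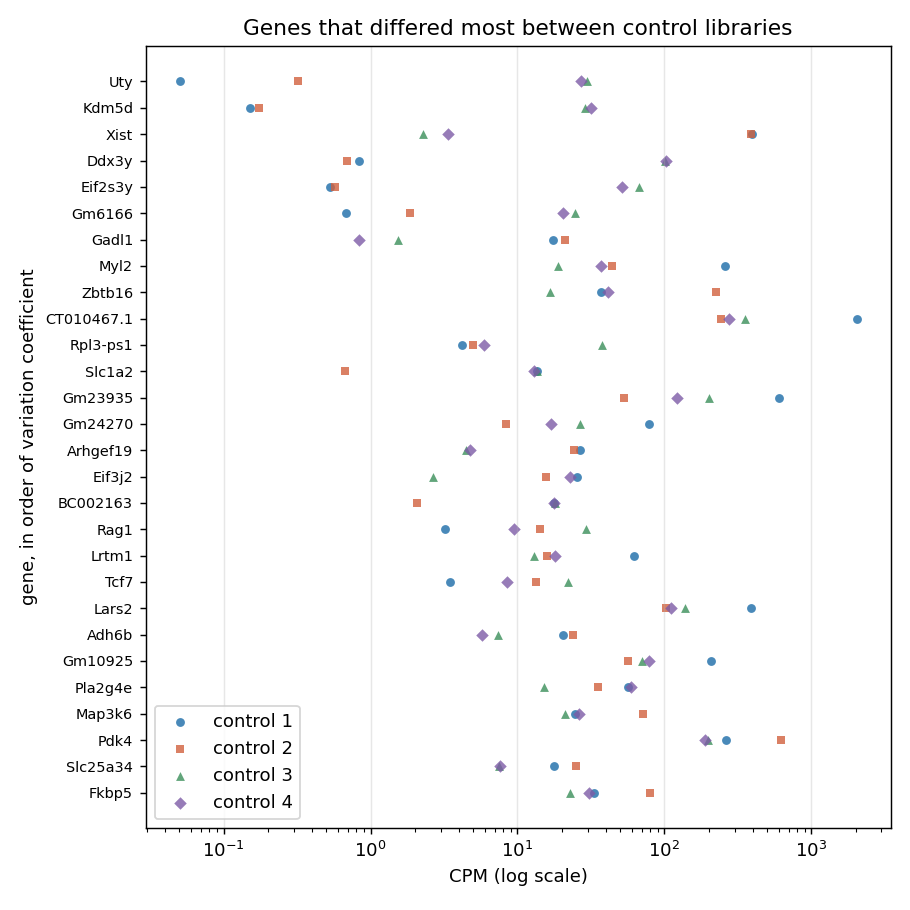
CPM (horizontal axis, log scale) of 28 of the 29 genes with a mean of 10 CPM or more and a BCV of 50% or more, in order of BCV, with 1 marker for each of the 4 control libraries. Xist is near 390 CPM in controls 1 and 2 and under 4 CPM in controls 3 and 4, and Ddx3y shows the reverse.

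In 10 of the 29 genes both of controls 1 and 2 lay at least 2-fold from both of controls 3 and 4. Xist, the noncoding RNA that silences an X chromosome in females, stood at 394, 391, 2.27 and 3.39 CPM. Ddx3y, on the Y chromosome, stood at 0.83, 0.696, 101 and 103 CPM, and the Y-linked Uty, Kdm5d and Eif2s3y had the same pattern. Gadl1, a decarboxylase gene, stood at 17.5, 20.9, 1.53 and 0.840 CPM and Arhgef19 at 26.7, 24.3, 4.46 and 4.75. The pairs that these genes separate are also the pairs that share a library name prefix. For genes outside the X and Y chromosomes, such as Gadl1 and Arhgef19, the prefix and the sex-linked pattern therefore cannot be told apart here.

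Control 2 stood apart in several genes. Zbtb16, a transcription repressor that glucocorticoids induce in many cells, stood at 37.1, 225, 16.6 and 41.01 CPM, and Pdk4, a kinase that turns off pyruvate oxidation, at 262, 619, 199 and 188. Fkbp5, a steroid receptor chaperone, stood at 33.2, 80.0, 22.9 and 30.7 CPM and Txnip at 397, 748, 258 and 302; Txnip was chosen after its values were seen. In each of these genes control 2 was the highest library. It was the lowest library for Slc1a2, a glutamate transporter, with 13.5, 0.671, 13.6 and 12.98, and for Snap25, a protein of vesicle release chosen after its values were seen, with 4.47, 0, 4.43 and 4.67.

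Control 1 held the highest Myl2 (259, 44.3, 18.8 and 36.8 CPM) and was the highest library for several further genes. CT010467.1, annotated as ribosomal RNA, stood at 2034, 242, 354 and 276 CPM, and Lars2, a mitochondrial leucyl-tRNA synthetase, at 391, 103, 138 and 111. Gm23935, an annotated microRNA gene of 57 bp of exon, stood at 604, 52.8, 201 and 122 CPM, and its rank 10 per kb rested on that short length. Control 3 held the highest values of Rag1 (3.22, 14.3, 29.5 and 9.47 CPM), the recombinase of developing lymphocytes, and Tcf7 (3.49, 13.4, 22.1 and 8.45), a T cell factor. The 12 lymphocyte markers, Rag1 among them, summed to 14.5, 37.4, 68.6 and 24.4 CPM, in the same order of libraries as Rag1. Since Rag1 is a large part of this sum, the shared order is not a separate observation. The part of thymus or other lymphoid tissue in these values was not tested.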

How the data were processed

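Polyadenylated RNA of mouse atria was sequenced in bulk, and the authors deposited raw read counts of genes as whole numbers, with libraries in columns. The submitters' processing notes name STAR, DESeq2 and the build mm10. The sources used here do not name the counting tool, its strand setting, its handling of reads with several matches or the annotation. Control columns were matched to samples by vector and number.

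CPM is the count over the column sum times 1000000. Total counts ran from 39804625 to 40588007, and a count of 3 stood for 0.0739 to 0.0754 CPM. Of 54532 identifiers, 54495 were found in GENCODE M21 (GRCm38), which gave coordinates and merged exon lengths; of duplicated symbols the identifier with more counts was used. Shared sequence is the share of a gene's 75-base words, on either strand, found in transcripts of another gene. The BCV came from edgeR 4.0.16 in R 4.3.3 (robust tagwise dispersion, TMM factors, no covariate) and was tested on simulated data. No group was compared with another, so no p-value was computed across genes. DESeq2 1.42.0 size factors, other denominators, filters and lengths, library prefixes and leaving out each library were tried as alternatives.

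The genes named are the 30 highest by CPM and per kb, members of the families, the highest 4 and the lowest of each function list, the highest 3 of each marker list, the 12 highest BCV with a curated symbol and the genes next to the minimum; others, including further list members, copies, overlapping genes and genes that follow them, were chosen after their values were seen. Of 752 listed symbols 750 were matched. The members and lists were chosen with earlier results of these data known. A few genes under this rule are left out of the text and figures, though they stayed in every count.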

Additional observations from a re-analysis of the deposited data

Results flagged for a closer look

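In each of the following the highest or lowest of the 4 libraries lay far from the others: its gap to the nearest library, divided by the whole range, passed Dixon's 95% critical value. Of 148 genes, summed lists and library measures examined, 14 did so. Chance flags about 1 in 20 groups, and several of these genes were named because they vary. Control 1 was far above the rest in CT010467.1 (ratio 0.937), Myl2 (0.894), Lars2 (0.877), Irx4 (0.871) and Gm10925, the chromosome 1 copy of mt-Atp6 (0.854; 207, 56.9, 70.8 and 78.8 CPM). Control 2 was far below the rest in Snap25 (0.949), Slc1a2 (0.948), Hbb-bs (0.857; 872, 503, 859 and 918 CPM) and the summed macrophage (0.832) and erythroid (0.830) markers. It was far above the rest in Zbtb16 (0.883) and in the summed fetal and neonatal markers (0.910; 1614, 1900, 1625 and 1598 CPM). Control 3 was lowest in Mb (0.830; 3606, 3634, 3426 and 3599 CPM), and control 4 was highest in the summed cardiac transcription factors (0.888; 2993, 2979, 2987 and 3107 CPM). In Mb and the transcription factors the whole range was small beside the level.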

How the results depend on the processing

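Of 65 alternatives, 61 stayed within the spread between libraries or within 1.5 times the count, and 4 moved. Some of the 61 could hardly move. Factors that scale a whole library leave shares of counts almost unchanged, and leaders highest in every library stay so in any subset. The bound of 1.5 times also passed a rise from 542 to 765 genes for 50% of counts without mitochondrially encoded genes. It likewise passed a fall from 39 to 33 unchanged leaders without length correction. With the mitochondrially encoded genes left out of the column sum, the 10 highest genes held 12.7% and the 100 highest held 25.9% of the counts; the share of mitochondrially encoded genes could not be computed this way. With no minimum, 30754 genes had a count in a control library. The number of genes with a BCV of 50% or more was 19 (without control 3) to 24 (without control 4) with 1 library left out, against 29 with all 4; the cause was not tested. No paired analysis was possible because only 1 group was described and no test was made between groups. The depth allowed no statement on single genes under about 3 counts, and 4 libraries limit every SD given here. Levels per kb depend on the annotated exon length, which counts exons that atria may not use, and libraries could not be tied to animals.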
